A study of Mus musculus with 15 samples.

Results

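The 9 genes Pf4, Mrc1, Cd163, Lyve1, F13a1, Ms4a7, Siglec1, Stab1 and Cd38, which mark border-associated macrophages, were followed through RNA sequencing of mouse microglia after ischemic stroke. They were chosen by name, and all 9 were listed among the 24421 genes of each of 3 deposited tables. Male mice aged 8 to 24 weeks had the middle cerebral artery blocked for 60 minutes, or sham surgery without the occlusion, and forebrain cells with intermediate CD45 and CD11b staining were sorted. The Yy1 comparison set 3 Cx3cr1-CreER;Yy1flox/flox libraries, called Yy1-deleted here, against 3 Yy1flox/flox libraries, the floxed controls, all on day 6. The controls carried both floxed alleles but no Cre, so Cre and deletion cannot be told apart, and the timing of any Cre induction was not given in the sources used here. Igf1-Egfp reporter mice, in which EGFP reports Igf1, were sorted by EGFP, with 1 library per state on each of days 6 and 14. Wild-type C57BL/6J mice gave 1 library each for sham and for days 1, 6, 14 and 28. The design text gives 3 biological replicates each, without saying whether this covers only the Yy1 genotypes. The wild-type and reporter groups have 1 library each, and whether those are pools of mice was not given in the sources used here.

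Border-associated macrophages live in the meninges, the perivascular spaces and the choroid plexus, outside the brain tissue that microglia patrol. Like microglia they descend largely from early embryonic precursors, depend on Csf1r signaling and express Cx3cr1, so a Cx3cr1-driven Cre can act in both. They clear debris and blood-derived material through scavenger receptors, and they stain more strongly for CD45 than resting microglia, whereas the sort used here took cells of intermediate CD45. The genes are not exclusive to these cells: Pf4 is best known from platelets, F13a1 from platelets and monocytes, Lyve1 from lymphatic endothelium, Stab1 from sinusoidal endothelium, and Siglec1 from interferon-exposed macrophages.

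Shown here are the promoters of F13a1 and Stab1, the members that edgeR called lower in Yy1-deleted libraries. That of Pf4, the member with the largest ratio between EGFP states on day 6, is shown as well. Each window runs from 250 bases before to 50 bases after an annotated start (RefSeq, GRCm38.p6), and 7 of the 9 members had at least 1 window, 9 windows in all. Capitals mark exact matches, on either strand, to a PU.1 motif (GAGGAAGT) or to the core site TGCTGA of Maf factors. F13a1 has windows at an upstream start (chr13:37050195-37050494, minus strand), without a match, and at a downstream start (chr13:37049164-37049463, minus strand). Those of Stab1 (chr14:31168592-31168891, minus strand) and Pf4 (chr5:90772185-90772484, plus strand) follow.
F13a1 upstream start: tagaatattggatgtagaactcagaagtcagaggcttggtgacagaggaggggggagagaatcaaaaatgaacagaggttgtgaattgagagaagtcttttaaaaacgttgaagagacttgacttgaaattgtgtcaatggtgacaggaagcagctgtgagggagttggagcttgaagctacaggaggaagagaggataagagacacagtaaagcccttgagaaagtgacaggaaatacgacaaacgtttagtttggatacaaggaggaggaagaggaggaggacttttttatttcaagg
F13a1 downstream start: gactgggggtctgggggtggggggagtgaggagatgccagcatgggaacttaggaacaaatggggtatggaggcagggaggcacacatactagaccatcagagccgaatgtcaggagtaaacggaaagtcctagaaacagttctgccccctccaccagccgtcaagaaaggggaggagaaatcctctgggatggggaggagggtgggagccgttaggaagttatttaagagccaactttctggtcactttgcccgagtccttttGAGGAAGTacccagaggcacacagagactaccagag
Stab1: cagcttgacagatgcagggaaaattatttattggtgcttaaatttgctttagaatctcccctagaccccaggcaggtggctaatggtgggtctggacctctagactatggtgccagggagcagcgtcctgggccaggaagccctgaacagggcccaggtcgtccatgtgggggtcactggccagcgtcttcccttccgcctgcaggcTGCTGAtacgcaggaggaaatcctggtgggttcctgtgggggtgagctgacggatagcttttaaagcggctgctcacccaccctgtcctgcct
Pf4: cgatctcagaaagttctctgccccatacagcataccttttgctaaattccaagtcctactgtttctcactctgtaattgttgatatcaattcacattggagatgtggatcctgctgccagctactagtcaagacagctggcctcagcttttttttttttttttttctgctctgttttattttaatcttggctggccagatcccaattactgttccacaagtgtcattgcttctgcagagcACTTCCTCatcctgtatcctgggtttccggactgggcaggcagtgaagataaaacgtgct
The YY1 motif searched, AANATGGC on either strand, had no match in any of the 9 windows, and 6.05% of all 32851 promoter windows of this length hold one. The PU.1 motif, held by 3.20% of all windows, lay 15 bases after the downstream start of F13a1 and, on the other strand, 10 bases before that of Pf4. The Maf core site, held by 19.5% of windows, lay 43 bases before the start of Stab1. Of the other motifs searched on both strands, the AP-1 motif TGANTCA (7.81% of windows) matched once, at Ms4a7, while TATAAA (13.6%) and the interferon-stimulated response element core (3.44%) matched in none of the 9 windows. A match is only a run of letters, and none of these was overlapped by another.

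Library totals, in M counts (mega), spanned 10.5 to 13.9 for the Yy1 genotypes, 23.1 to 24.6 for the reporter on day 14, and 16.8 to 52.6 for the time course with the day 6 reporter. Levels below are CPM, counts per M counts of the library scaled by edgeR's TMM method, and were compared within a table only. All 12 homeostatic microglia genes on a marker list had counts in every library. Their sums ran from 7011 to 30519 CPM in the time course with the day 6 reporter. They ran from 11410 to 22727 CPM for the Yy1 genotypes and from 37506 to 39018 CPM for the reporter on day 14. The libraries of days 14 and 28 and the EGFP-negative library of day 14 had counts in 11823, 9886 and 10892 genes, the fewest of the 15. A count of 0 allows up to 3 counts, which is 0.0562 CPM in sham, 0.163 CPM on day 14, 0.132 CPM on day 28 and, in the day 14 EGFP-negative library, 0.118 CPM. Among counts of 20 or less, even numbers made up 68.7% to 90.9% in each library with whole counts, so intervals and floors, which cover counting error only, would be too narrow there if both mates of a fragment were counted.

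Stab1, which encodes the scavenger receptor stabilin-1, was high in every library, and the other 8 members were low or at 0 in sham. Stab1 supplied 96.6% of the summed member CPM in sham and at least 39.4% in every library. In EGFP-negative cells of day 14 it stood at 757 CPM, while the other 8 members summed to 0.864 CPM and endothelial and mural genes to 30.7 CPM. The cell source of Stab1 was not tested. Per kb of merged exons, the order in sham was Stab1 with 79.9 CPM per kb, Mrc1 with 3.85, Cd38 with 0.347, Siglec1 with 0.244, F13a1 with 0.178 and Cd163 with 0.0549. Pf4, Lyve1 and Ms4a7 had 0 counts there. In the 3 floxed controls Stab1 averaged 107 ± 18.1 CPM per kb (SD, n = 3), above all others without overlap. Below it came Siglec1 (10.6 ± 1.90), F13a1 (8.21 ± 1.64), Cd38 (5.90 ± 1.67), Pf4 (4.46 ± 3.66), Mrc1 (3.51 ± 0.832) and Ms4a7 (2.32 ± 0.612), where each gene overlapped the next. Cd163 (0.555 ± 0.273) lay below Ms4a7 without overlap and overlapped Lyve1 (0.374 ± 0.648). Stab1 (chromosome 14, 31139013 to 31168641, GRCm38) shares 112 of its 10288 exon bases with Nt5dc2 on the opposite strand, which did not exceed 28.6 CPM in any library.

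F13a1 and Stab1 were lower in the libraries called Yy1-deleted here. Yy1 itself, the targeted transcription factor gene, stood at 32.4, 28.8 and 38.6 CPM in Yy1-deleted libraries, against 75.9, 51.0 and 57.8 CPM in floxed controls. Its groups did not overlap, but it was not called (log2 fold change -0.88, SE 0.28, edgeR adjusted p = 0.128), and where its counts lie relative to the floxed sequence was not given in the sources used here. F13a1 (chromosome 13, 36867178 to 37050244, GRCm38), which encodes the A subunit of coagulation factor XIII, stood at 8.44, 17.1 and 11.5 CPM in Yy1-deleted libraries, against 43.5, 57.0 and 65.4 CPM in floxed controls. The F13a1 groups did not overlap either. F13a1 fell by 2.16 on the log2 scale (SE 0.37, edgeR adjusted p = 0.00296), to 12.3 ± 4.39 CPM in Yy1-deleted libraries against 55.3 ± 11.0 CPM in controls (SD, n = 3 each). The call held in each of 13 alternative settings, with adjusted p up to 0.0411. Stab1 stood at 537, 737 and 742 CPM in Yy1-deleted libraries, against 1314, 961 and 1037 CPM in controls, also without overlap. It fell by 0.71 on the log2 scale (SE 0.15, edgeR adjusted p = 0.0153). The Stab1 call was lost without Yy1-deleted replicate 1 (log2 fold change -0.58, edgeR adjusted p = 0.0780) and without control replicate 1 (-0.56, adjusted p = 0.192).

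Over all 12387 genes tested, 1.05% were called lower and 1.55% higher in Yy1-deleted libraries, 130 and 192 genes, and scaling by total counts turned this split to 193 lower and 127 higher. Of the 9 members, 8 passed the filter on low counts, 2 were called lower and 0 higher, and, as a description, the median log2 fold change of those 8 was -0.82, against -0.02 over all genes tested. The p-values set the difference between genotypes against the spread within genotypes among these 6 libraries.

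The hemoglobin scavenger receptor gene Cd163 (chromosome 6, 124304656 to 124330527) and the NAD-consuming enzyme gene Cd38 (chromosome 5, 43868553 to 43912375) did not overlap between genotypes either, but were not called. Cd163 had 0, 1 and 0 counts in Yy1-deleted libraries, against 26, 55 and 31 counts in floxed controls. The ratio of the summed counts, deleted over control, was 0.0103 (exact 95% counting interval 2.6e-04 to 0.0586), and the edgeR adjusted p was 0.179. DESeq2 called it (adjusted p = 0.0252), and 0.497 was its highest adjusted p over the alternatives. Cd38 stood at 0.589, 0 and 11.8 CPM in Yy1-deleted libraries, against 16.0, 24.0 and 28.9 CPM in controls. For Cd38 the fit gave -2.48 on the log2 scale (SE 1.09, edgeR adjusted p = 0.302). It was called lower without Yy1-deleted replicate 3 (adjusted p = 0.00412), the library with the highest Cd38 of that genotype. It was also called without the low-count filter (adjusted p = 0.0126), while its highest adjusted p over the alternatives was 0.616. With F13a1 and Stab1, 4 of the 8 members tested lay lower in all 3 Yy1-deleted libraries than in any control, against a background of 11.6% of all genes, and 0 lay higher in all 3, against 9.45%.

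The remaining members overlapped between genotypes. Mrc1, the mannose receptor gene, stood at 8.24, 19.2 and 11.5 CPM in Yy1-deleted libraries, against 18.3, 28.3 and 20.5 CPM in controls (log2 fold change -0.78, SE 0.49, edgeR adjusted p = 0.545). Yy1-deleted replicate 2 lay within the range of the controls. Siglec1, which encodes the sialic acid receptor sialoadhesin, stood at 51.3, 84.9 and 36.8 CPM in Yy1-deleted libraries, against 64.5, 71.9 and 90.7 CPM in controls (-0.39, SE 0.29, adjusted p = 0.654). Ms4a7, a membrane protein gene of macrophages, stood at 1.28, 6.34 and 11.4 CPM in Yy1-deleted libraries, against 13.5, 9.07 and 8.50 CPM in controls (-0.70, SE 0.83, adjusted p = 0.808). The chemokine gene Pf4 had 15, 0 and 39 counts in Yy1-deleted libraries, against 2, 54 and 69 counts in controls (adjusted p = 0.912). Lyve1, a hyaluronan receptor gene, had 28, 0 and 0 counts in Yy1-deleted libraries, against 0, 0 and 47 counts in controls, and did not pass the filter. Each genotype thus had 1 library with Lyve1 and 2 without.

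**Figure D1:**
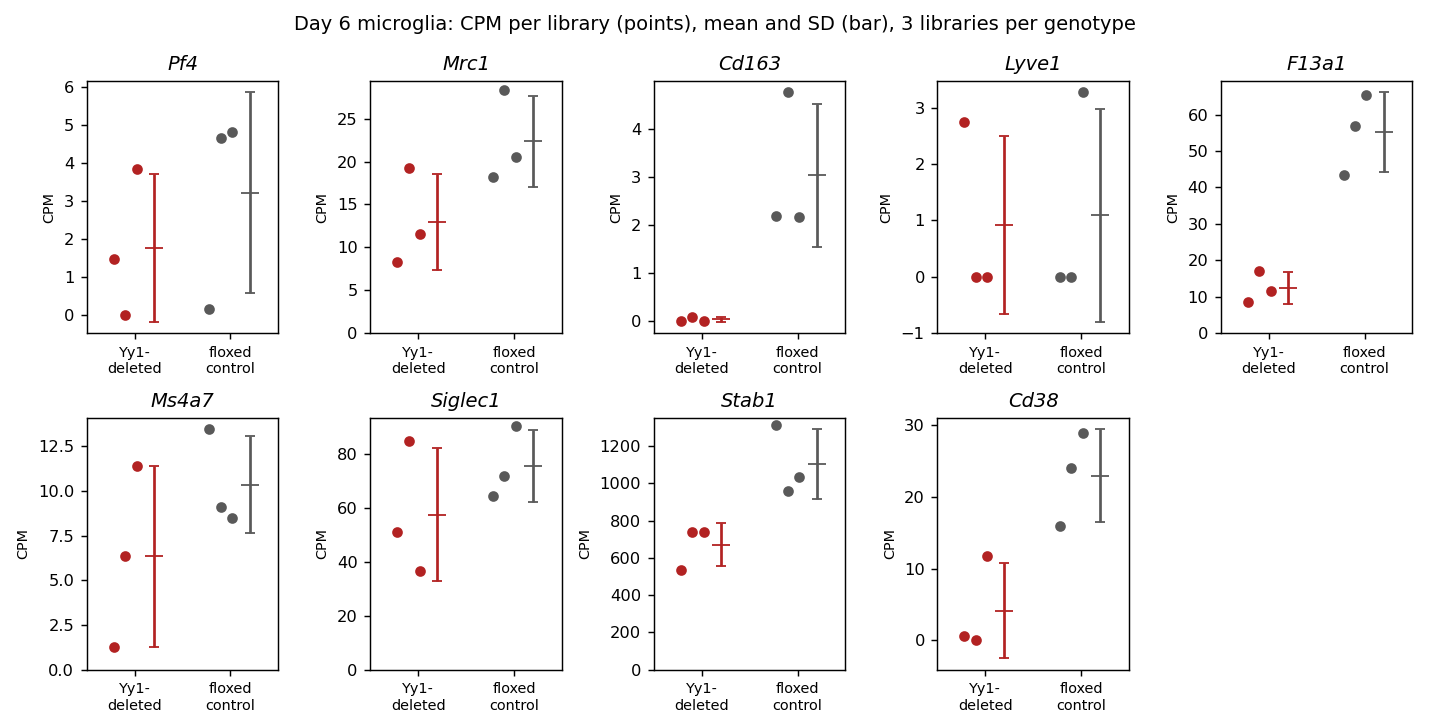
CPM of each member on day 6 (vertical axis, a separate scale per panel) in 3 Yy1-deleted libraries and 3 floxed controls, with points for libraries and bars for the mean and SD. F13a1, Stab1, Cd163 and Cd38 do not overlap between genotypes, with F13a1 at 12.3 ± 4.39 CPM in Yy1-deleted libraries against 55.3 ± 11.0 CPM in controls.

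Further border macrophage genes went both ways in the same libraries. Of 25 on a second list, 14 passed the filter, 1 was called lower and 2 higher, with a median log2 fold change of -0.50. Tgfbi, which encodes a secreted matrix protein, fell to 37.0 ± 8.24 CPM in Yy1-deleted libraries, against 125 ± 17.5 CPM in controls (log2 fold change -1.75, edgeR adjusted p = 4.9e-04). The co-receptor gene Nrp1 rose by 0.70 (adjusted p = 0.0260) and Hpgd, which encodes a prostaglandin-degrading enzyme, by 0.68 (0.0307), and in sham they stood at 304 CPM (Nrp1) and 399 CPM (Hpgd).

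Other markers moved with the genotype. The 12 homeostatic microglia genes were all called higher, with sums of 21159, 22727 and 21102 CPM in Yy1-deleted libraries, against 11410, 12255 and 13030 CPM in controls. Cx3cr1, the Cre driver's gene, was among them (log2 fold change 0.50, edgeR adjusted p = 0.0386). Scaled by total counts, its edgeR adjusted p was 0.113, and leaving out any 1 of the 6 libraries gave 0.0668 to 0.211. The 9 monocyte markers summed to 629, 693 and 744 CPM in Yy1-deleted libraries, against 853, 1011 and 1232 CPM in controls. Fn1, the fibronectin gene, supplies most of these sums, and without it they were 80.1, 42.3 and 61.7 CPM in Yy1-deleted libraries, against 119, 127.5 and 143 CPM in controls. Of 8 tested, 1 was called lower, the chitinase-like gene Chil3 (28.9 ± 13.3 CPM in Yy1-deleted libraries, 71.1 ± 4.70 CPM in controls, SD, n = 3 each, edgeR adjusted p = 0.0381). Fn1 (log2 fold change -0.52) and Ccr2 (-0.51) were not called, and S100a4 had 0 counts in all 3 Yy1-deleted libraries and in 1 control. Of the other lists, 1 of 9 neutrophil genes tested (Csf3r, a growth factor receptor gene) and 1 of 5 dendritic cell genes (Fscn1, an actin-bundling protein gene) were called higher. Without these genes the sums overlapped between genotypes. Neutrophil genes without Csf3r summed to 367, 246 and 385 CPM in Yy1-deleted libraries, against 333, 344 and 306 CPM in controls. Dendritic cell genes without Fscn1 summed to 15.9, 45.4 and 18.6 CPM in Yy1-deleted libraries, against 21.0, 27.3 and 17.9 CPM in controls. No call was made among 11 interferon-stimulated, 7 endothelial and mural, 3 platelet, 2 lymphatic endothelial and 1 B cell gene tested, and of the T and NK cell genes 0 passed the filter. The part of these cell types in the lower F13a1 and Stab1 was not tested, and in bulk libraries fewer cells of a type and less RNA per cell cannot be told apart.

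In EGFP-positive cells, 5 of the 9 members were higher on day 6. Pf4 stood at 25.6 CPM in EGFP-positive cells, against 0.993 CPM in EGFP-negative cells, a fold ratio of 25.8 (exact 95% counting interval 18.7 to 36.4). Ms4a7 stood at 144 CPM in EGFP-positive cells, against 16.8 CPM in EGFP-negative ones, a log2 ratio of 3.03 with a pseudocount of 1 CPM, as for all ratios here. Stab1 stood at 2392 and 364 CPM (2.71), Cd38 at 242 and 40.1 CPM (2.56), and Siglec1 at 203.5 and 52.5 CPM (1.93), each with EGFP-positive cells higher. These 5 members passed a size rule of an absolute log2 ratio of 1 with at least 20 CPM in 1 of both libraries. The minimum was reached by 7 of the 9 members and by 7252 genes in all. Of these genes 7.53% passed in the higher and 11.9% in the lower direction. F13a1 was nearly level, at 416 CPM in EGFP-positive cells, against 392 CPM in EGFP-negative ones (0.09). Mrc1, at 60.2 and 49.4 CPM (0.28), was close to level as well. Cd163 stood at 18.0 CPM in EGFP-positive cells, against 7.05 CPM in EGFP-negative ones and Lyve1 at 2.24 and 1.19 CPM, both under the minimum of 20 CPM. With 1 library per state, no spread between mice stands behind these ratios.

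Monocyte, neutrophil, dendritic cell and interferon-stimulated genes were lower in the EGFP-positive library of day 6. The monocyte markers summed to 1147 CPM in EGFP-positive cells, against 4954 CPM in EGFP-negative ones, and 8 of the 9 were lower in EGFP-positive cells by the size rule. Fn1 stood at 779 CPM in EGFP-positive cells, against 1346 CPM in EGFP-negative ones, Chil3 at 228 and 1751 CPM, and Ccr2 at 64.5 and 698 CPM. Without Fn1 the monocyte sums were 369 CPM in EGFP-positive cells, against 3607 CPM in EGFP-negative ones. The neutrophil markers summed to 439.7 and 12065 CPM. Dendritic cell markers summed to 55.4 CPM in EGFP-positive cells, against 389 CPM in EGFP-negative ones, with 4 of 5 lower by the size rule, and T and NK cell genes to 0 and 31.4 CPM. The platelet markers summed to 3.71 CPM in EGFP-positive cells, against 10.1 CPM in EGFP-negative ones, with 2 of 10 genes detected in EGFP-positive cells. Ppbp, a platelet chemokine gene named after its values were seen, stood at 2.16 and 0 CPM there, beside Pf4 at 25.6 and 0.993 CPM. The interferon-stimulated genes summed to 377 CPM in EGFP-positive cells, against 839 CPM in EGFP-negative ones, with 8 of 10 lower and 0 higher by the size rule, while Siglec1 was higher. The part of these cells in the member levels was not tested. Of the further border macrophage genes, 4 were higher and 1 lower among 14 with at least 20 CPM, with Folr2, a folate receptor gene, at 27.2 and 3.58 CPM and the lectin gene Clec10a at 2.40 and 58.2 CPM.

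On day 14 the reporter table listed 5 members in EGFP-positive cells that had 0 counts in EGFP-negative cells. Siglec1 stood at 41.6 CPM in EGFP-positive cells, Ms4a7 at 11.0 CPM, Mrc1 at 9.34 CPM, F13a1 at 3.14 CPM and Cd38 at 2.51 CPM. Pf4 stood at 3.50 CPM in EGFP-positive cells, against 0.864 CPM in EGFP-negative ones, and Cd163 and Lyve1 had 0 counts in both. Stab1 went the other way, at 627 CPM in EGFP-positive cells, against 757 CPM in EGFP-negative ones (log2 ratio -0.27). Only 2 of the 9 members, Siglec1 and Stab1, had the 20 CPM that the size rule asks for. Of these 2, Siglec1 was higher and 0 were lower, against 11.2% and 10.9% of 7085 genes with that minimum. Zeros of this kind were not rare in the EGFP-negative library: of 5717 genes with 5 to 50 CPM in EGFP-positive cells, 8.78% had at most 3 counts in EGFP-negative cells, against 1.67% of 5394 genes the other way. F13a1 and Cd38 lay below that range, where no share was taken, so the share covers Siglec1, Ms4a7 and Mrc1 only. Monocyte markers here summed to 555 CPM in EGFP-positive cells, against 94.1 CPM in EGFP-negative ones (189.8 and 4.47 CPM without Fn1), the interferon-stimulated genes to 1128 and 492 CPM, the neutrophil genes to 2317 and 1241 CPM (1094 and 0.157 CPM without Csf3r), and the endothelial and mural genes to 393 and 30.7 CPM. Their part in the member levels was not tested.

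**Figure D2:**
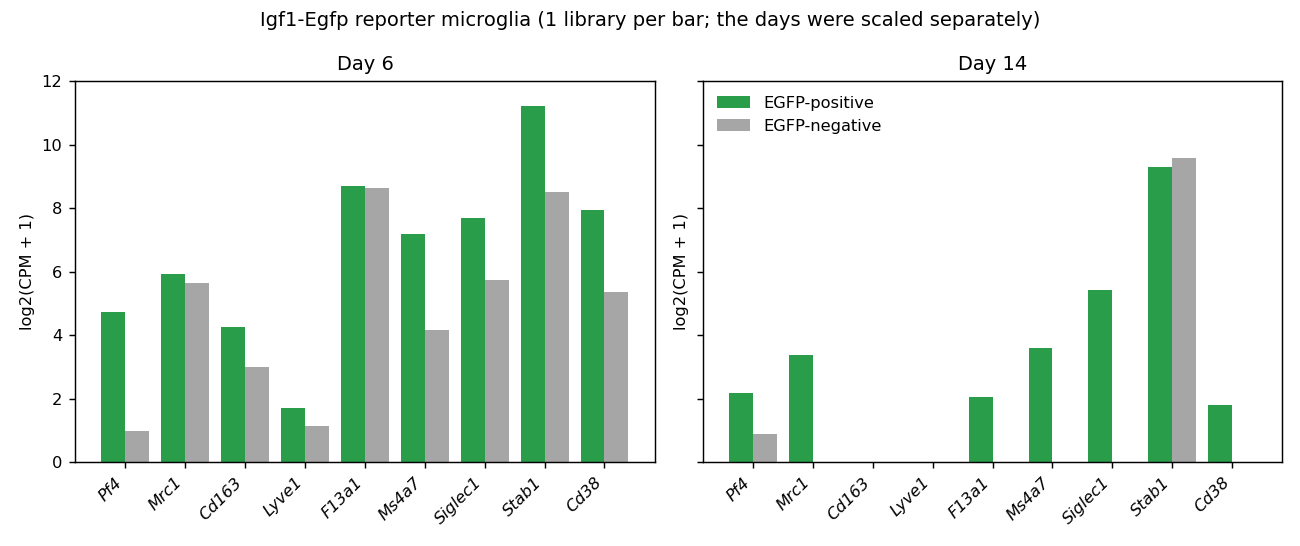
Level of each member, as log2(CPM + 1), in EGFP-positive (left bar of each pair) and EGFP-negative microglia on day 6 and day 14, 1 library per bar. On day 6 F13a1 is nearly level, at 416 and 392 CPM, while Pf4, Ms4a7, Stab1, Cd38 and Siglec1 are higher in EGFP-positive cells. On day 14 the EGFP-negative library shows Stab1 and a little Pf4.

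Both days were also fitted together with day and EGFP state as terms, which leaves 1 residual degree of freedom. edgeR called 0 of 12842 genes (0.00% in either direction, 193 at an unadjusted p under 0.05), and limma-voom called 0 (389). DESeq2 called 31 of 16328 genes, 18 higher and 13 lower. Among the higher ones were Ms4a7 (log2 coefficient 5.69, DESeq2 adjusted p = 0.0154) and Cd38 (4.24, adjusted p = 0.0402). In edgeR these coefficients were 5.11 (SE 1.82) and 3.82 (SE 1.22), each with an adjusted p of 1. EGFP-positive cells were higher on both days for both genes. Day cannot be told apart from table or sequencer, a NovaSeq on day 14 and a HiSeq on day 6.

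In wild-type cells the members did not follow 1 course. Mrc1 was at 24.5 CPM in sham and, over days 1, 6, 14 and 28, at 22.0, 23.3, 0.109 and 28.6 CPM. The day 14 level rests on 2 counts, against 1309 counts in sham. Of 4464 genes with 10 to 50 CPM in sham, 6.70% had at most 3 counts on day 14, 22.2% on day 28 and 0% on days 1 and 6. Stab1 stood at 822, 920, 874, 208 and 247 CPM in the same order. Its log2 ratio to sham was 0.09 on day 6, -1.98 on day 14 and -1.73 on day 28, all short of the size rule of 2 used below.

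F13a1 was highest on day 1 and Siglec1, Pf4, Ms4a7 and Lyve1 on day 6. Cd163 was at 2.48 CPM on day 6 and 1.92 CPM on day 1, a fold ratio of 1.29 whose exact 95% counting interval (0.975 to 1.72) includes no difference. F13a1 was at 1.20 CPM in sham and, over days 1 to 28, at 30.1, 18.8, 2.88 and 1.76 CPM. Its day 1 to sham fold ratio was 25.1 (exact 95% counting interval 19.5 to 32.8). Siglec1 stood at 1.74, 10.6, 61.7, 13.9 and 43.5 CPM, so its day 28 level was the second highest of the 5. The interferon-stimulated genes summed to 58.9, 199.8, 483, 737 and 597 CPM in that order, and their part in the Siglec1 levels was not tested. Ms4a7 had 0, 71, 540, 0 and 2 counts, Pf4 0, 56, 143, 0 and 0 counts, Lyve1 0, 78, 121, 8 and 0 counts, and Cd163 16, 95, 111, 0 and 0 counts. All 4 thus had few or no counts outside days 1 and 6. Such losses were common on day 28, where 26.5% of 4938 genes with 10 to 50 CPM on day 6 had at most 3 counts, and 5.27% did on day 14. Ms4a7, at 12.1 CPM on day 6, lay in that range. Pf4 (3.19 CPM), Lyve1 (2.70 CPM) and Cd163 (2.48 CPM) lay below it, where no share was taken, so these shares do not cover them.

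Cd38 was at 1.35 CPM in sham and, over days 1 to 28, at 10.2, 39.6, 65.4 and 0 CPM. It was the member with its highest wild-type level on day 14, where 1202 counts were behind it. On day 28, 9.91% of 1877 genes with 50 to 100 CPM on day 14 had at most 3 counts. The size rule here was an absolute log2 ratio of 2 with at least 20 CPM in 1 of both libraries. Shares are over the members and genes with that minimum. F13a1 was higher on day 1 (1 of 3 members, against 5.59% of 7203 genes). Siglec1 and Cd38 were higher on day 6 (2 of 4, against 6.25% of 7092). On day 14 Cd38 was higher and Mrc1 lower (1 of 3 each, against 12.9% and 6.82% of 7833 genes). Siglec1 was higher on day 28 (1 of 3, against 11.1% of 7616). Of the 3, 4 and 3 members with 20 CPM on days 1, 6 and 28, 0 were lower, against 2.00%, 0.0846% and 15.2% of genes. The other members could not be called lower by this rule. With a minimum of 5 CPM, Siglec1 and Cd38 joined on day 1, F13a1 and Ms4a7 on day 6 and Siglec1 on day 14.

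**Figure D3:**
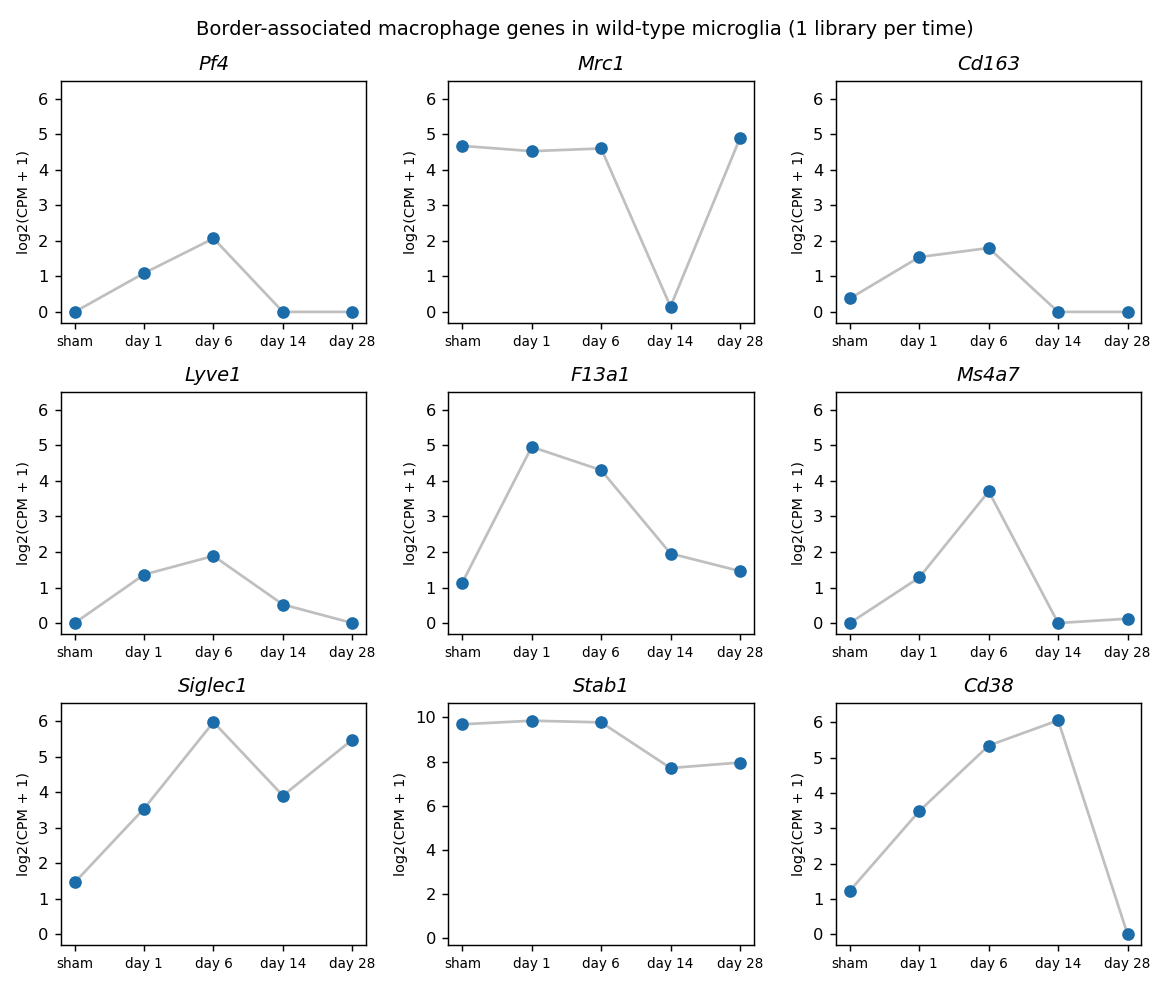
Level of each member, as log2(CPM + 1), in wild-type microglia of sham-operated mice and of days 1, 6, 14 and 28 after stroke, 1 library per point, with lines to guide the eye and a larger scale for Stab1. Mrc1 is level apart from day 14 (2 counts), F13a1 peaks on day 1 at 30.1 CPM, and Cd38 peaks on day 14 at 65.4 CPM.

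Members also differed in their proportions between the libraries of day 6. F13a1 stood at 392 CPM in EGFP-negative cells, against 18.8 CPM in wild-type cells of the same day and table, a fold ratio of 20.9 (exact 95% counting interval 19.5 to 22.4). For EGFP-positive cells, the same ratio to wild type was 22.2. Each group had 1 library, and reporter genotype, mice and sorting cannot be told apart in these ratios. The 9 monocyte markers summed to 1147 CPM with EGFP and 4954 CPM without EGFP, against 1433 CPM in wild-type cells, of which Fn1 alone was 1361 CPM. Without Fn1 they summed to 369 CPM with EGFP and 3607 CPM without EGFP, against 72.4 CPM in wild-type cells. Of these 8 genes, 7 were higher in EGFP-positive and 8 in EGFP-negative cells than in wild-type cells. The part of monocytes in the F13a1 levels was not tested. F13a1 had 7.93 counts per count of Mrc1 in EGFP-negative cells and 6.92 in EGFP-positive cells, against 0.806 in wild-type cells. In sham and on days 1, 14 and 28 it had 0.0489, 1.37, 26.5 and 0.0613, the day 14 value resting on 2 Mrc1 counts, beside monocyte sums without Fn1 of 16.0, 458, 37.7 and 1430.3 CPM. Cd38 (40.1 CPM) and Siglec1 (52.5 CPM) in EGFP-negative cells lay close to wild-type cells of day 6 (39.6 and 61.7 CPM), and Stab1 stood at 364 CPM against 874 CPM.

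Across the 7 libraries of the time course with the day 6 reporter, Pearson's r between the log2(CPM + 1) of 2 members ran from -0.11 for Mrc1 with Cd38 to 0.97 for Cd163 with Ms4a7. Each member's median r with the others was lowest for Mrc1 (0.51) and highest for Ms4a7 (0.80). The members' mean scaled pattern was highest in EGFP-positive cells of day 6 and lowest on day 14. The 5 genes closest to that pattern among 9380 with at least 20 CPM in a library were Cd200r4, a paired immune receptor gene (r = 0.99), the aldehyde reductase gene Akr1a1 (0.99), the glutathione peroxidase gene Gpx3 (0.98), the acyltransferase gene Lpgat1 (0.98) and the androglobin gene Adgb (0.98). The 7 points share a table and its scaling, and a single library, EGFP-positive day 6, is the highest for each of these 5 genes, with Gpx3 at 57.9 CPM there and 5.81 CPM in EGFP-negative cells.

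Further border macrophage genes in wild-type cells were also spread over days. By the size rule, 3 were higher and 1 lower on day 1 of 8 with at least 20 CPM, 4 higher and 0 lower on day 6 of 9, 3 and 0 on day 14 of 8, and 4 and 1 on day 28 of 9. The endocytic adaptor gene Dab2 stood at 973 CPM on day 1 against 36.0 CPM in sham. The copper-binding oxidase gene Cp stood at 155 CPM on day 6 and 257 CPM on day 14, against 28.4 CPM in sham. The lectin receptor gene Clec12a stood at 87.4 CPM on day 28 against 0.825 CPM in sham. Cd209f, a lectin gene of perivascular macrophages, had 0 counts in all 15 libraries, and Timd4, Fcna and Cd209b did not exceed 2.83 CPM in any.

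**Figure D4:**
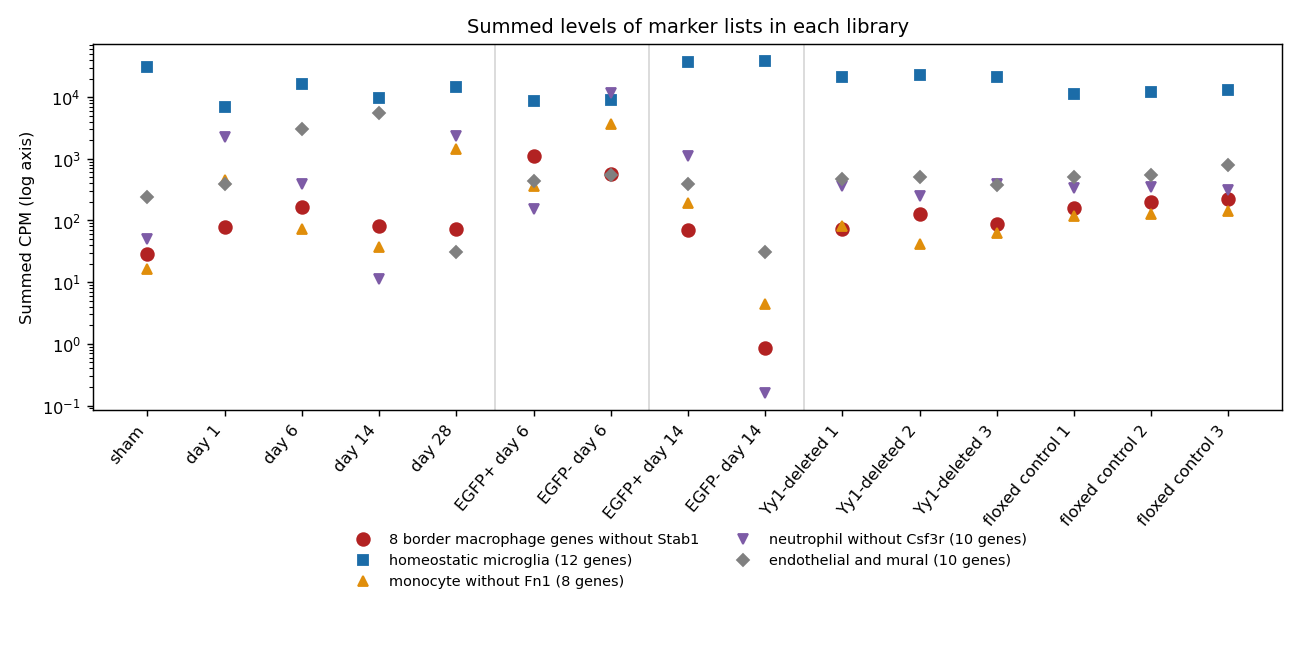
Summed CPM (log axis) of the 8 members other than Stab1 and of 4 marker lists (monocyte without Fn1, neutrophil without Csf3r) in each of the 15 libraries; values are comparable between libraries within a table (the time course shares one with the day 6 reporter). The 8 members sum to 29.1 CPM in sham and 1112 CPM in EGFP-positive cells of day 6, and to 0.864 CPM in EGFP-negative cells of day 14.

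Endothelial, lymphatic and B cell markers varied over the days as well. Endothelial and mural genes summed to 242, 384, 2992, 5461 and 30.8 CPM from sham to day 28, and lymphatic endothelial genes to 35.2, 27.8, 50.3, 91.7 and 23.8 CPM. Lyve1 was at 0.435 CPM and Stab1 at 208 CPM on day 14, when the endothelial sum was highest. Of the lymphatic genes Ccl21a had 0 counts in all libraries. Dendritic cell genes summed to 467, 122, 149, 107.5 and 799 CPM, of which genes other than Fscn1 made up 16.2, 32.0, 17.6, 15.7 and 497 CPM. Neutrophil genes summed to 704, 2421, 852, 410.3 and 2999 CPM, of which genes other than Csf3r made up 50.3, 2232, 391, 11.1 and 2383 CPM, and B cell genes to 10.3, 3.81, 6.08, 0 and 119 CPM. T and NK cell genes did not sum to more than 1.96 CPM in wild-type cells. Their part in the member levels was not tested.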

How the data were processed

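RNA of sorted microglia was made into Ovation SoLo libraries and sequenced on HiSeq or, for the day 14 reporter, NovaSeq instruments, per the labels' protocols. STAR, featureCounts and edgeR and the builds mm10 and GRCm38 are named in the submitters' processing notes, without versions or roles. The authors deposited raw read counts per gene in 2 tables and, in the Yy1 table, values that are in part fractional, taken here for expected counts and rounded before tests. Of the values in a Yy1 library, 3.55% to 4.75% were not whole. Whether counting used strand was not given in the sources used here.

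Groups were taken from sample titles, and 0 columns were left unused. The Yy1 libraries, and separately the 4 reporter libraries, were fitted over all genes with edgeR 4.0.16 (R 4.3.3), using filterByExpr, TMM and the two-sided quasi-likelihood F-test with Benjamini-Hochberg adjustment at 0.05. DESeq2 1.42.0 and limma 3.58.1 served as alternatives. Comparisons with 1 library per group had no test. Gene positions and exon lengths came from GENCODE mouse release 21 (GRCm38). The procedures were tested on simulated data.

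The members, gene lists and tests were chosen with earlier results of these data known. All 9 members were named throughout. Of the second border macrophage list, called genes (up to 8) or those past the size rule (up to 4, of which some are shown) were named, and of other lists up to 3 by mean CPM. Marker sums without the leading gene of a list (Fn1, Csf3r or Fscn1, by mean CPM over all libraries) were added after the values were seen. Ppbp and the genes given as undetected or nearly so were named after their values were seen.

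Replicate numbers 1 to 3 recur in both Yy1 genotypes, and nothing in the labels ties equal numbers together, so the fit had no block.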

Additional observations from a re-analysis of the deposited data

Results flagged for a closer look

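Stab1 had opposite signs between EGFP states on the 2 reporter days, with a log2 ratio of EGFP-positive to EGFP-negative cells of 2.71 on day 6 and -0.27 on day 14. The difference was not tested, since each state had 1 library per day and the days lie in separately scaled tables.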

How the results depend on the processing

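In the Yy1 comparison 322 genes were called, 192 higher and 130 lower. Scaling by total counts called 127 higher, limma-voom 289 higher, no low-count filter 575 (309 higher, 266 lower) and DESeq2 746 (380 higher, 366 lower). Leaving out 1 library each gave 97 to 317 genes, 58 to 166 higher and 39 to 151 lower, with the fewest without control replicate 1. It gave 1 to 3 members called. Without control replicate 2, 165 were called (98 higher, 67 lower), and without control replicate 3, 78 lower. The cause was not tested.

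The replicate block called 503 genes (249 lower), Cd38 among them (adjusted p = 1.3e-04). Deviations of same-numbered libraries from their group means correlated at -0.04 to -0.01 over 12387 genes, so the numbers were not taken to pair the samples.

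Of 16328 reporter genes fitted over both days, DESeq2 called 31 (18 higher, 13 lower, 2 of them members), where edgeR called 0 of 12842. With a minimum of 5 CPM, members past the size rule were 3 on day 1, 4 on day 6, 2 higher on day 14 and 3 for EGFP on day 14. With no minimum they were 3, 5, 2 and 6. These settings admit more genes by construction. Other scalings and pseudocounts left each of these member counts within 1.5 times, and no called value changed sign. Size factors other than TMM moved the median log2 ratio of all genes by 0.17 on day 14 and 0.12 on day 28, and total counts moved it by -0.10 in the Yy1 comparison. The few genes detected on days 14 and 28 limit every level near 0.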
